A study of Drosophila melanogaster with 8 samples.

Results

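The genes described here encode the enzymes of glycolysis from hexokinase to pyruvate kinase, chosen by gene symbol. The rule names 10 genes, and 9 of them were among the 7671 genes of the deposited table. These were Hex-A, Hex-C, Pgi, Pfk, Ald, Tpi, Gapdh2, Pgk and PyK. Gapdh1, a paralog of Gapdh2, was not analysed here. The libraries came from dissected intestines of mated Drosophila melanogaster females. At 7 days old the flies were placed for 24 hours on calorie-restricted food, which was the maintenance diet diluted to 0.25 of its strength. One group received 0.1 M N-acetyl-D-glucosamine (GlcNAc) in that food and the control group received none, with 4 independent samples in each. For the flies of its food intake measurement, the study gives UAS-mCD8::GFP and hsFLP, with tub-GAL4/+ and FRT82B tub-GAL80 over FRT82B. Its RNA-seq methods name no genotype for the sequenced flies, controls included. The genotype given is that of offspring of a cross for marking clones, in which the tubulin promoter drives GAL4 and its inhibitor GAL80. The treatment field of the labels gives glucosamine where the titles give GLUCNAC, and the source field names larvae where the tissue field gives intestine. The methods of the study name GlcNAc and adult intestines, and that reading is used here.

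Glycolysis turns glucose into pyruvate in the cytosol. In its first phase, ATP is spent to phosphorylate the sugar and split it into trioses, and in its second phase ATP and NADH are gained. Fructose 6-phosphate, the product of Pgi, is also the entry point of the hexosamine biosynthesis pathway (HBP), into which dietary GlcNAc feeds further downstream. The comparison asks whether transcripts of these enzymes differed in the intestine when GlcNAc was added to a poor diet. Every value is a transcript level in whole intestines, so fewer cells of a type and less RNA per cell cannot be told apart, and neither enzyme activity nor flux was measured.

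The table held between 8839877 and 10326189 reads per library. Members were covered by 254 reads (Hex-A in its lowest library) to 8524 reads (Gapdh2 in its highest). Of 15 marker genes listed for enterocytes, the absorptive cells, 12 were in the table. Their summed level ran from 28997 to 35864 CPM (read counts scaled to the library size) in control and from 24415 to 27543 CPM on GlcNAc, and 6 of them were lower at an adjusted p under 0.05, the threshold used throughout. The sum of 10 progenitor markers ran from 208 to 241 CPM in control and from 219 to 262 CPM on GlcNAc, and the groups overlapped. Of 9 enteroendocrine markers in the table, 3 were higher past the threshold, and their sum ran from 274 to 343 CPM in control and from 323 to 366 CPM on GlcNAc. Of 12 Malpighian tubule markers only 4 were in the table, and 2 were higher past the threshold. The sum of the 4 ran from 71.1 to 112 CPM in control and from 101 to 194 CPM on GlcNAc. By comparison, 6.6% of all genes tested passed the threshold as lower and 8.75% as higher. Each sum is weighted to the most abundant genes of its list and is no measure of cell number. The part of any of these cells in the results was not tested. Of 9 fat body markers 4 were in the table, and their sum varied from 36.6 to 666 CPM in control and from 118 to 349 CPM on GlcNAc, being highest in replicate 2 of each group. For ovary, 2 of 11 markers were in the table, otu and Yp1, and Yp1 is also on the fat body list. The ovary sum was 20.3, 417, 149 and 190 CPM in control and 95.4, 226, 78.0 and 64.3 CPM on GlcNAc. Fat body and ovary RNA can therefore not be told apart by these sums.

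Per kilobase of annotated exon, the enzymes of the pathway spanned a wide range of levels. Lengths were taken from the Ensembl annotation of the BDGP6 assembly. On this scale Gapdh2 was the most abundant member in control, with 482 ± 20.4 CPM per kb, followed by PyK with 282 ± 17.4 and Pgk with 112 ± 5.97 CPM per kb (SD, n = 4). Pgi had 63.8 ± 0.838, Tpi 60.6 ± 0.875 and Ald 41.05 ± 2.21 CPM per kb. Hex-C followed with 33.99 ± 3.41, Pfk with 19.8 ± 2.87, and Hex-A came last with 7.35 ± 0.740 CPM per kb. The 3 members of the second phase therefore stood above all 6 members of the first. In control, no 2 neighbours in this order had overlapping ranges. On GlcNAc the order was kept except that Tpi, at 74.05 ± 3.56, came before Pgi, at 69.9 ± 11.02 CPM per kb, and the ranges of these 2 overlapped. With the length of the canonical transcript in place of all exons, Ald moved from position 6 to position 4 in both conditions, ahead of Pgi and Tpi. Its gene has 10 annotated transcripts, and the choice of length changes its level from 41.05 to 89.5 CPM per kb in control. With the canonical length Tpi stood before Pgi in control as well, at 68.73 against 63.79 CPM per kb. The exchange of these genes between conditions was therefore seen with the exon length only. With the canonical length the control ranges of Hex-C, from 30.58 CPM per kb, and Pfk, up to 32.52 CPM per kb, also overlapped.

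**Figure D1:**
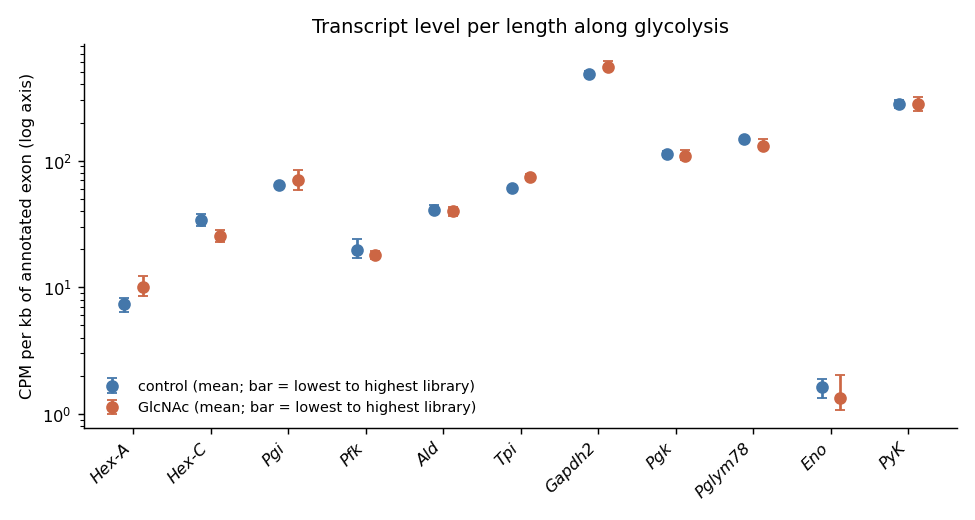
Transcript level along glycolysis in CPM per kb of annotated exon on a log axis, for control and GlcNAc. Points are means over 4 libraries and bars run from the lowest to the highest library. Gapdh2 and PyK lie highest, Hex-A lies lowest of the members, and Eno, which is no member, lies below all of them.

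The glycolytic genes did not move together on GlcNAc. Of the 9 genes, Hex-A and Tpi were higher, Hex-C was lower, and 6 did not pass an adjusted p of 0.05 (limma, Benjamini-Hochberg over the 7671 genes). Over all genes tested, 15.3% passed in either direction, 8.75% as higher and 6.6% as lower, so that 2 higher and 1 lower member of 9 stood beside a background of 671 higher and 506 lower genes. The share of calls that were higher was 57.01%, and it was 67.97% with library totals as the scaling. The median log2 fold change of the members was -0.03, against 0.01 over all genes, and their median absolute log2 fold change was 0.14, against 0.15. The largest log2 changes among the members were 0.45 and -0.42, both in the hexokinases. The ranges of the 2 conditions did not overlap for 4 members, which were the 3 called genes and Gapdh2. Over all genes this held for 20.5%.

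**Figure D2:**
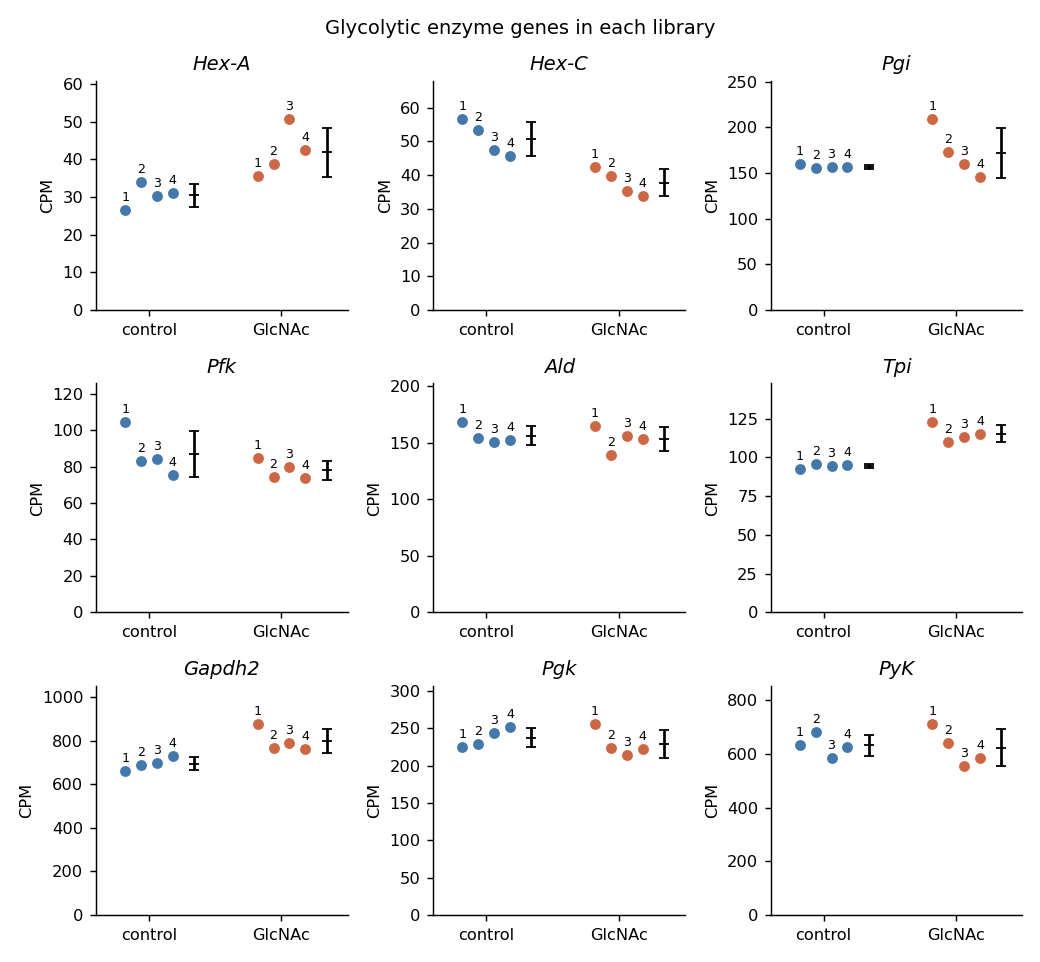
CPM of the 9 genes in each library, on axes that start at 0, with the replicate number above each point and the mean ± SD of 4 libraries to the right of each group. The groups are apart for Hex-A, Hex-C, Tpi and Gapdh2, and GlcNAc replicate 1 is the highest GlcNAc library for every gene except Hex-A.

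Hexokinase phosphorylates glucose and so traps it in the cell, and the pair of hexokinase genes moved in opposite directions. Hex-A, the broadly expressed hexokinase that also serves flight muscle, lies on the X chromosome at 9585675-9589813 on the plus strand (BDGP6). Its control libraries had 26.5, 33.9, 30.3 and 31.1 CPM, and its GlcNAc libraries 35.5, 38.7, 50.7 and 42.5 CPM. The lowest GlcNAc library stood just above the highest control library. The mean went from 30.4 ± 3.06 to 41.9 ± 6.54 CPM (SD, n = 4), a 1.37-fold rise with a 95% interval from 1.15 to 1.64. On the log2 scale this was 0.45 (standard error, SE, 0.12, limma adjusted p = 0.0247). This call was not firm: without control replicate 1, 3 or 4, or without GlcNAc replicate 3 or 4, the adjusted p was 0.0611, 0.0563, 0.0548, 0.0506 and 0.066, while the log2 fold change stayed between 0.36 and 0.46.

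Hex-C, a hexokinase known from the fat body, lies on chromosome 2R at 15218837-15220329 on the minus strand. It was at 56.6, 53.3, 47.4 and 45.7 CPM in control and at 42.4, 39.8, 35.2 and 33.8 CPM on GlcNAc. The ranges were apart, with GlcNAc below control. The mean fell from 50.7 ± 5.09 to 37.8 ± 4.00 CPM (SD, n = 4), to 0.745 of the control level (95% interval 0.642 to 0.864). This is -0.42 on the log2 scale (SE 0.10, limma adjusted p = 0.0143), with an adjusted p of 0.0459 at most when any 1 library was left out. The summed level of the 4 fat body markers was 36.6, 666, 232 and 289 CPM in control, where replicate 1, the highest for Hex-C, was the lowest. On GlcNAc it was 152, 349, 124 and 118 CPM, where replicates 1 and 2 were the highest for both and replicate 4 the lowest for both. The ovary sum, which shares Yp1 with the fat body sum, ran in the same order of libraries within each condition. The part of fat body or ovary RNA in the Hex-C values was not tested.

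Within each library the balance between the 2 hexokinase genes can be read without any scaling between libraries. The ratio of Hex-A to Hex-C CPM was 0.468, 0.637, 0.638 and 0.680 in control and 0.838, 0.974, 1.44 and 1.26 on GlcNAc. Hex-C had more reads in all 4 control libraries, and Hex-A had more in GlcNAc replicates 3 and 4. The log2 ratio rose by 0.88, or 1.84-fold (two-sided exact permutation test over 70 assignments, p = 0.0286, the smallest it can give). This separation had to follow from the separation of both genes and adds no further evidence. The sum of both genes was 83.1, 87.2, 77.7 and 76.7 CPM in control and 77.96, 78.5, 85.9 and 76.4 CPM on GlcNAc. The groups overlapped, with means of 81.2 ± 4.92 and 79.7 ± 4.24 CPM (SD, n = 4). On the scale per kb, where the longer Hex-A transcripts count for less, the sum was 41.3 ± 3.22 in control and 35.4 ± 1.75 CPM per kb on GlcNAc, with control libraries from 38.1 to 44.3 and GlcNAc libraries from 32.9 to 37.0. On this scale the groups did not overlap. The share of Hex-A in that sum was 17.9 ± 2.34% in control and 28.7 ± 4.96% on GlcNAc (SD, n = 4). Both results depend on the length taken for Hex-A, which was 4.139 kb over all exons of its 3 transcripts. Its canonical transcript has 2.512 kb. With that length Hex-A is at 12.12 in place of 7.354 CPM per kb in control, and at 16.67 in place of 10.12 on GlcNAc. The sum and the share were not computed with it, so the separation per kb is shown for the exon length only. No test was made on either sum.

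**Figure D3:**
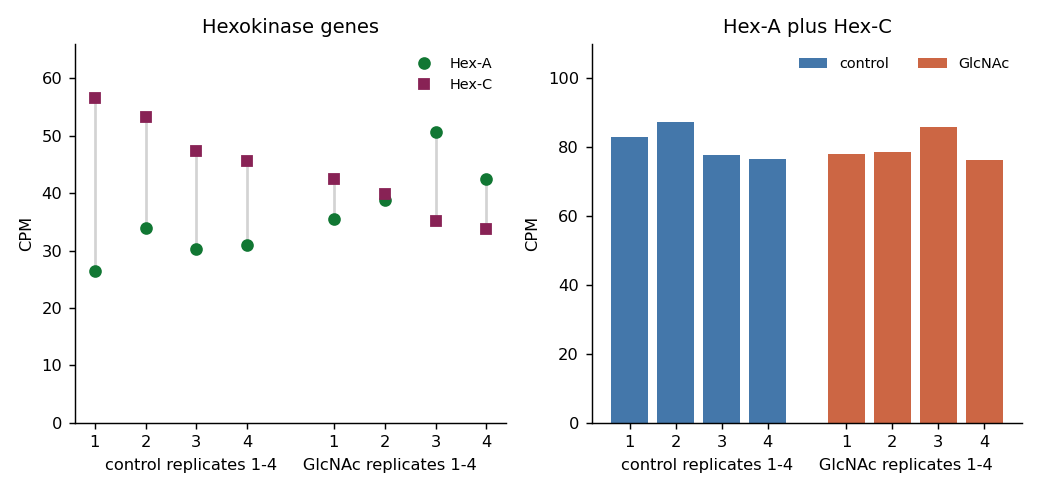
Left, CPM of Hex-A (circles) and Hex-C (squares) in each library, joined by a line. Right, the sum of the 2 genes in CPM. Hex-C is above Hex-A in every control library, the order is the other way in GlcNAc replicates 3 and 4, and the sums of both conditions lie between 76.4 and 87.2 CPM.

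The next 3 enzymes, which carry glucose 6-phosphate to the split into trioses, did not pass the threshold. Pgi, phosphoglucose isomerase, makes fructose 6-phosphate (chromosome 2R, 8910900-8914069, minus strand). It was nearly constant in control, at 159.8, 155.0, 156.7 and 156.2 CPM, and scattered on GlcNAc, at 208.9, 173.2, 160.1 and 145.6 CPM. The groups overlapped, since 1 GlcNAc library lay below all controls and the other 3 above them. The log2 fold change was 0.12 (95% interval -0.10 to 0.33, limma adjusted p = 0.487), and it was 0.02 without GlcNAc replicate 1. The SD on the log2 scale was 0.0189 in control and 0.221 on GlcNAc. This difference in spread was not tested.

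Pfk, phosphofructokinase, commits the sugar to glycolysis and is its main point of control (chromosome 2R, 10109740-10117457, plus strand). Its levels were 104.6, 83.0, 84.0 and 75.2 CPM in control and 84.7, 74.4, 79.5 and 73.5 CPM on GlcNAc. The groups overlapped. Apart from control replicate 1, the controls ran from 75.2 to 84.0 CPM, beside 73.5 to 84.7 CPM on GlcNAc. Its estimated log2 change was -0.14 (95% interval -0.36 to 0.07, limma adjusted p = 0.397) and moved to -0.05 without control replicate 1, the highest library.

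Ald, aldolase, splits fructose 1,6-bisphosphate into dihydroxyacetone phosphate and glyceraldehyde 3-phosphate (chromosome 3R, 26254069-26261591, minus strand). It had 168.8, 153.9, 150.5 and 152.2 CPM in control and 164.6, 139.1, 156.4 and 153.3 CPM on GlcNAc. The 2 ranges lay almost on top of each other. The interval of its log2 fold change, -0.18 to 0.12, leaves out any change of the size seen for either hexokinase (estimate -0.03, limma adjusted p = 0.835). The sign of this estimate turned with library totals as the scaling, to 0.02.

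Tpi, triose phosphate isomerase, converts the 2 trioses into each other so that both can be used (chromosome 3R, 30132981-30134599, minus strand). It rose with little spread. Control libraries had 92.6, 95.9, 94.3 and 94.9 CPM and GlcNAc libraries 123.1, 110.1, 113.1 and 115.2 CPM. The gap between the groups, from 95.9 to 110.1 CPM, was wider than the whole control range. The mean rose from 94.4 ± 1.36 to 115.4 ± 5.55 CPM (SD, n = 4), or 1.22-fold (95% interval 1.12 to 1.33). In log2 units the rise was 0.29 (SE 0.05, limma adjusted p = 0.00594). Leaving out any 1 library kept it between 0.26 and 0.31, with an adjusted p of at most 0.0207. The residual SD of Tpi, 0.0507 on the log2 scale, was among the lowest of the table, at percentile 2.20 of the 7671 genes.

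In the second phase, Gapdh2 was higher in every GlcNAc library but did not pass the threshold. Glyceraldehyde 3-phosphate dehydrogenase makes the NADH of glycolysis. Gapdh2 lies on the X chromosome at 15868145-15869661 on the plus strand, and its paralog Gapdh1 on chromosome 2R at 7791901-7793380. Gapdh2 had 660.5, 690.3, 698.1 and 731.9 CPM in control and 876.8, 768.6, 790.1 and 760.2 CPM on GlcNAc. The lowest GlcNAc library was close above the highest control library. The means were 695.2 ± 29.4 and 798.9 ± 53.4 CPM (SD, n = 4), and the log2 change was 0.20 (95% interval 0.05 to 0.35). The p was 0.0162 before and 0.0849 after adjustment (limma). With library totals as the scaling the adjusted p was 0.0356, and without GlcNAc replicate 1 the log2 fold change was 0.15 (adjusted p = 0.207). The study discarded reads of low quality in counting and does not say how it treated reads that fit both Gapdh copies equally. The level of Gapdh2 is uncertain to that extent.

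Pgk and PyK, the enzymes that make ATP, did not differ detectably. Pgk, phosphoglycerate kinase (chromosome 2L, 2746880-2753068, minus strand), had 225.1, 228.5, 244.2 and 251.6 CPM in control. On GlcNAc it had 255.8, 224.2, 214.0 and 222.0 CPM, with replicate 1 above all controls and the other 3 below all of them. Its log2 fold change was -0.05 (95% interval -0.21 to 0.10, limma adjusted p = 0.687). PyK, pyruvate kinase (chromosome 3R, 22367536-22372746, plus strand), had 634.5, 681.6, 586.5 and 627.0 CPM in control and 711.6, 641.8, 556.5 and 583.4 CPM on GlcNAc. The GlcNAc libraries spread beyond the control range on both sides. Its log2 fold change was -0.03 (95% interval -0.22 to 0.17, limma adjusted p = 0.896). With library totals as the scaling, the estimates were 0.00 for Pgk and 0.03 for PyK. Gapdh2 and PyK together made up 62.01 ± 1.07% of the summed CPM of the 9 genes in control and 63.2 ± 0.575% on GlcNAc (SD, n = 4).

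**Figure D4:**
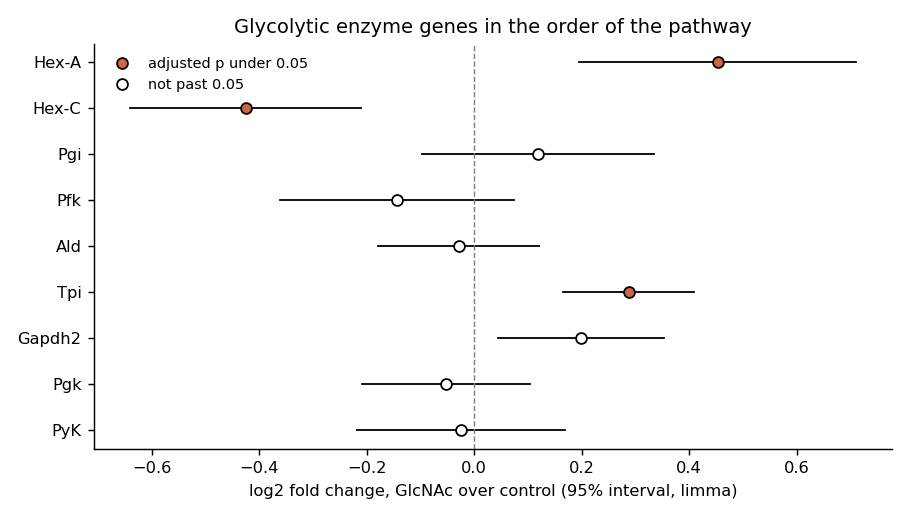
Log2 fold change of GlcNAc over control for the 9 genes in the order of the pathway, with 95% intervals from limma. Filled points passed an adjusted p of 0.05: Hex-A at 0.45, Hex-C at -0.42 and Tpi at 0.29. The interval of Gapdh2, from 0.05 to 0.35, does not reach 0, yet its adjusted p is 0.0849.

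Part of the spread among the members was shared within libraries. GlcNAc replicate 1 was the highest of the 4 GlcNAc libraries for 8 of the 9 members, whereas it was the highest for 25.6% of all genes. The exception was Hex-A, for which it was the lowest. The median deviation of the members from the GlcNAc mean was 0.14 on the log2 scale in this library, against 0.0085 over all genes. No control library stood out in this way, with at most 4 members highest in any one. The summed CPM of the 9 genes was 2129, 2176, 2092 and 2166 in control and 2504, 2210, 2156 and 2130 on GlcNAc. Only GlcNAc replicate 1 lay well above the control range, which ran up to 2176, and GlcNAc replicate 2 lay slightly above it. Without GlcNAc replicate 1 the calls for Hex-A (adjusted p = 0.019), Hex-C (0.014) and Tpi (0.0192) were kept in limma.

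After the mean of each condition was taken away, the deviations of 26 of 28 pairs of members without Hex-A were positively correlated over the 8 libraries, which share their scaling. The closest pair was Gapdh2 and Pgk (r = 0.888). For the 8 pairs with Hex-A, 0 were positive, and the correlation of Hex-A with Hex-C was -0.62. Neither the share of positive pairs over all genes nor these counts without GlcNAc replicate 1 were computed. Whether the counts are unusual, or rest on that library, can therefore not be told. Hex-A was lowest in replicate 1 of each condition. The summed level of 12 visceral muscle markers was also lowest there, at 1130 CPM in control replicate 1 and 989 CPM in GlcNAc replicate 1, with the other libraries from 1473 to 1576 and from 1211 to 1372 CPM. Among those other libraries the orders differed. On GlcNAc, replicate 3 was the highest for Hex-A and the lowest of them for this sum. In control, the highest was replicate 2 for Hex-A and replicate 3 for this sum. Between conditions this sum did not go up with Hex-A. The median log2 fold change of the 12 markers was -0.17, with 1 of them past the threshold, as lower, and their part in the Hex-A values was not tested.

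The 2 steps between Pgk and PyK are catalysed by phosphoglycerate mutase and enolase. Pglym78, the mutase, had 172.3, 163.9, 168.0 and 172.2 CPM in control and 167.4, 146.4, 142.6 and 139.6 CPM on GlcNAc, so that 3 of 4 GlcNAc libraries lay below all controls. The log2 fold change was -0.19 (95% interval -0.33 to -0.04, limma adjusted p = 0.0923), and the adjusted p was 0.0254 without GlcNAc replicate 1. Eno, the enolase gene, had between 4.98 and 7.03 CPM in control and between 3.96 and 7.49 CPM on GlcNAc, which rest on 38 to 73 reads. The log2 change was -0.34 (95% interval -0.81 to 0.14, limma adjusted p = 0.363), an interval too wide to tell a fall from no change. Whether the counting or the gene model keeps the reads of Eno so few was not tested, so its values are those of the table and may not give its transcript level.

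Around glycolysis, 27 genes of neighbouring carbohydrate pathways were tested, Pglym78 and Eno included. Of these, 2 were higher and 3 were lower past the threshold, with a median log2 fold change of -0.11. By share, 18.5% of them passed, close to the 15.3% over all genes. The 2 genes tested for the glycerol 3-phosphate shuttle, Gpdh and Gpo-1, were among the lower ones. Of 20 symbols listed for gluconeogenesis and this shuttle, only 5 were tested. Gpdh, the enzyme that takes dihydroxyacetone phosphate out of glycolysis and oxidises NADH in the cytosol, had 420.2, 445.1, 368.9 and 424.3 CPM in control and 316.1, 338.6, 280.9 and 259.0 CPM on GlcNAc. The groups did not overlap, and the log2 change was -0.48 (SE 0.09, limma adjusted p = 0.00686). Gpo-1, the mitochondrial partner that passes the electrons on to the respiratory chain, had 156.3, 164.0, 182.0 and 161.9 CPM in control and 137.6, 114.1, 103.3 and 115.6 CPM on GlcNAc. It was again lower in every GlcNAc library, by a log2 change of -0.50 (SE 0.09, limma adjusted p = 0.00396). Tpi, which shares the substrate of Gpdh, was higher in all GlcNAc libraries, and a link between these changes was not tested.

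In the pentose phosphate pathway, which branches off at glucose 6-phosphate and yields NADPH, 1 of 6 genes passed the threshold. This gene, Zw, encodes glucose 6-phosphate dehydrogenase, the first enzyme of the branch, and was higher on GlcNAc. It had 49.3, 42.1, 52.1 and 44.6 CPM in control and 78.6, 64.2, 53.9 and 64.6 CPM on GlcNAc, apart by a narrow margin between 52.1 and 53.9 CPM. Its log2 change was 0.47 (SE 0.11, limma adjusted p = 0.0196), and the adjusted p was 0.0514, 0.058 and 0.0507 without control replicate 2, control replicate 4 and GlcNAc replicate 4. Pgd, 6-phosphogluconate dehydrogenase of the same branch, had a log2 fold change of -0.23 (adjusted p = 0.105), and this value was looked up because of Zw.

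Among 13 genes of glycogen, trehalose and galactose metabolism, 1 was higher and 1 was lower past the threshold. CG9485 fell from 47.01 ± 2.24 to 24.9 ± 1.55 CPM (SD, n = 4), with control libraries at 44.1, 48.6, 46.4 and 48.9 and GlcNAc libraries at 26.6, 25.8, 23.3 and 23.97 CPM. This was the largest decrease of the 27 genes, with a log2 change of -0.92 (SE 0.07, limma adjusted p = 3.1e-05). CG5171 rose from 3.26 ± 0.697 to 7.32 ± 2.13 CPM (SD, n = 4), or by 1.14 on the log2 scale (SE 0.24, limma adjusted p = 0.0111), on only 25 to 89 reads per library. Treh, the trehalase that releases glucose from the blood sugar of flies, ranged from 855.1 to 1092 CPM in control and from 813.1 to 1043 CPM on GlcNAc, with a log2 fold change of -0.04 (95% interval -0.29 to 0.20). The gene fbp, for fructose bisphosphatase, which reverses the step of Pfk, had control libraries from 18.2 to 32.6 and GlcNAc libraries from 30.4 to 40.4 CPM, with a log2 fold change of 0.55 (limma adjusted p = 0.0646). Treh and fbp were named after their values had been seen.

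**Figure D5:**
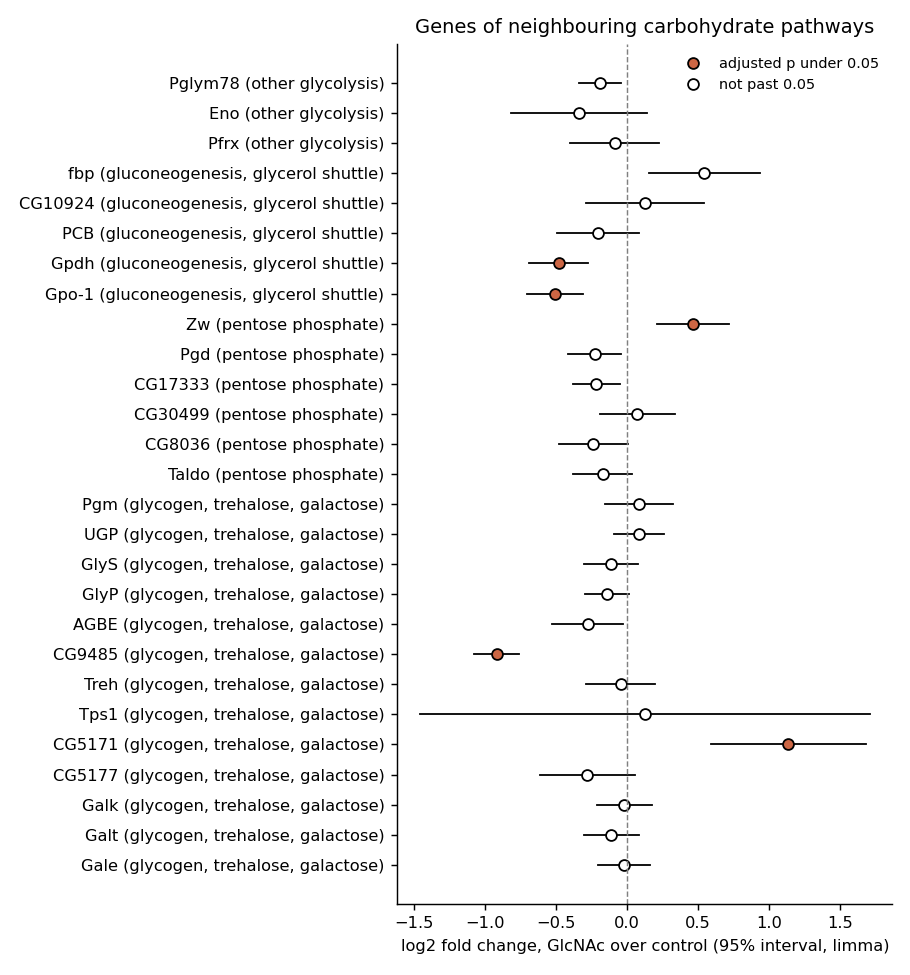
Log2 fold change of GlcNAc over control with 95% intervals from limma for 27 genes of pathways next to glycolysis, grouped by list. Filled points passed an adjusted p of 0.05: Gpdh, Gpo-1 and CG9485 lie below 0, and Zw and CG5171 lie above it.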

How the data were processed

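RNA-seq was analysed from 8 intestinal libraries, 4 per condition, assigned by the sample titles. Libraries kept the strand and were read from one end. Trimming (Trimmomatic), mapping to FlyBase release 6 (TopHat) and exon counting (HTSeq) were done by the authors. They deposited log2 CPM values scaled between libraries, with an offset of 0.5 read and after removal of low expressed genes. The deposited table also holds the authors' own comparison (log2 fold changes, test statistics that are a score with no fixed range, and p-values), which was not used.

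The deposited log2 values of all 7671 genes entered a linear model in R 4.3.3 (limma 3.58.1, eBayes with trend, no covariate), with Benjamini-Hochberg adjustment over all genes and a threshold of 0.05. CPM are 2 to the power of the deposited values, and means and SDs are over libraries. Reads were recovered from the steps between values, and 100% of 61368 came out whole within 0.01 read. Ensembl gene models of BDGP6 gave lengths and positions. They may differ from the FlyBase models used for counting, on the same assembly. Of the named genes, Ald, Pgk, Pglym78, Eno, Gpdh, Zw, Pgd, CG9485 and Treh overlap a gene on the opposite strand, and counting was by strand. The Hex-A to Hex-C ratio was compared by an exact permutation test.

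The members, the gene lists and the alternatives were chosen with earlier results of these data known. Named genes are the members, Pglym78, Eno and the neighbouring genes past the threshold, at most 6 a list. Pgd, Treh and fbp lie outside this rule and were named after their values were seen. P-values from limma set the difference between conditions against the spread between samples within a condition. The exact permutation p is the share of assignments with a difference at least as large. Alternatives were a filter of 10 CPM, a replicate block, each library left out, voom weights, library totals, quantile normalization, median centring, a pseudocount of 2 CPM and limma without trend.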

Additional observations from a re-analysis of the deposited data

Results flagged for a closer look

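Eno in GlcNAc replicate 3, at 7.49 CPM, lay far from the other 3 GlcNAc libraries, which had 3.96, 4.33 and 4.16 CPM. The gap to the nearest of them was 0.86 of the whole range on the log2 scale, above the 95% limit of Dixon for 4 values. It was the only such library among the 36 groups of 4 examined for the named genes and the hexokinase ratio, where about 5% of groups pass the limit by chance.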

How the results depend on the processing

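Hex-C and Tpi kept their call under every alternative run. Hex-A lost its call when any 1 of 5 libraries was left out, so that with 1 library left out the higher members numbered between 1 and 2, and the lower members 1. With library totals Gapdh2 passed as well, which made 3 higher members. Values near 0 changed sign: Ald was at 0.02 and PyK at 0.03 with library totals, where Pgk was at 0.00, and with 1 library left out Ald ran from -0.06 to 0.02 and PyK from -0.09 to 0.03. Library totals moved the median log2 fold change of all genes from 0.01 to 0.07 and the share of calls that were higher from 57.01% to 67.97%. Among the neighbouring genes, the filter at 10 CPM left 1 higher, since it removed CG5171, and with 1 library left out 1 to 2 were higher and 3 to 7 were lower, the 7 without GlcNAc replicate 1. The adjusted p of fbp passed 0.05 with library totals (0.0286), the replicate block (0.0101) and without control replicate 2 (0.0184).

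Replicate numbers are shared between conditions, but the labels tie them to no batch. Deviations of same-numbered libraries correlated at 0.211, 0.397, 0.151 and -0.0588, so the numbers were not taken as pairs. With the replicate block, 1324 genes passed against 1177, and 2 members were again higher and 1 lower. The Hex-A to Hex-C difference of 0.88 had p = 0.125 within replicate numbers, the smallest that 4 pairs allow, and with 1 library left out it ran from 0.75 to 1.01, with an exact permutation p of 0.0571 without control replicate 1, 2 or 3. The planned ratio of Gapdh1 to Gapdh2 was not run, since Gapdh1 was not analysed here.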

Other observations

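The listed values of Eno stood apart from the rest of the pathway, and whether they give its transcript level was not tested. Per kb of annotated exon it had 1.65 ± 0.243 CPM in control and 1.34 ± 0.451 CPM on GlcNAc (SD, n = 4). The gene of the step before it, Pglym78, had 148.9 ± 3.54 and 131.2 ± 11.06 CPM per kb, and PyK, of the step after it, had 282 ± 17.4 and 278 ± 30.7 CPM per kb. With the length of the canonical transcript Eno came to 2.30 CPM per kb in control. In the BDGP6 annotation used here, 9.74% of the exon length of Eno overlaps Rrp40 on the opposite strand and 0% overlaps a gene on the same strand.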
